A study of Drosophila melanogaster with 2 samples.

Results

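The genes described here encode ATP-dependent chromatin remodellers of the ISWI, CHD and INO80 families of Drosophila melanogaster, together with partner subunits that work with these ATPases outside the Brahma complex. The 10 genes were named by their roles, with earlier results of these data known, and were taken by symbol from both deposited gene tables. They are Iswi, Acf1, E(bx), Nurf-38, Mi-2, MEP-1, kis, Chd1, dom and Ino80, and all 10 were found among the 14210 genes listed. RNA was measured in 1 library per genotype from type II neuroblast lineages of larval brains in the third instar. Type II neuroblasts, a small class of neural stem cells, give rise to intermediate neural progenitors (INPs), and these in turn make ganglion mother cells and neurons.

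The osa RNAi library came from flies that carried UAS-CD8::GFP together with an RNAi line against osa (7810, Vienna collection). The wild type library came from flies of the w1118 strain that carried UAS-CD8::GFP alone. Both transgene sets were driven by worniu-Gal4 with ase-Gal80, so the RNAi construct and the membrane GFP were expressed where this driver pair is active, and cells of high GFP were sorted from dissected brains. Eggs were laid over 24 h and animals were kept for 5 days at 25 °C in both groups. Per the labels, the osa RNAi sort held neuroblasts, revertant cells resembling neuroblasts, and INPs, whereas neuroblasts, INPs and ganglion mother cells, but no neurons, made up the wild type sort. The sources used here do not give the number of animals pooled. The study's title names the SWI/SNF complex and the PRDM protein Hamlet, and the comparison addresses how transcript levels in these lineages differ when the SWI/SNF subunit gene osa is knocked down.

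Chromatin remodellers are motor proteins of the SNF2 superfamily that use ATP to slide, space, evict or exchange nucleosomes. Iswi is the motor of several complexes that differ in their large partner subunit: Acf1 defines ACF and CHRAC, which space nucleosomes evenly, and E(bx) defines NURF, which opens chromatin at promoters. CHD proteins carry paired chromodomains next to the motor. Among them, Mi-2 works in the deacetylase complex NuRD and, with the zinc-finger protein MEP-1, in dMec, which represses genes, while Kismet and Chd1 act with transcribing RNA polymerase II. The INO80 family has a split motor domain, and its members Domino and Ino80 act on nucleosomes that hold the H2A variant H2Av. The Brahma (SWI/SNF) complex, to which Osa belongs, is a separate remodeller family.

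Depth and cell markers set the frame for these values. Summed over genes, the reads implied by the interval widths came to 15707014 in the osa RNAi library and 10114559 in the wild type library. FPKM counts fragments relative to transcript length and to the size of the library, so levels of different genes can be compared per length. With 1 library per genotype there is no replicate check and no test, and every interval given here covers counting error only. The targeted gene osa was at 15.6 FPKM in the osa RNAi library, against 31.3 FPKM in the wild type library, an FPKM ratio of 0.499 (95% interval 0.475 to 0.524), and brm, the ATPase gene of the Brahma complex, was at 44.6 FPKM in osa RNAi and 46.5 FPKM in wild type. Of 8 marker genes of type II lineages, none was at 0 in either library, with a summed level of 334 FPKM in osa RNAi and 344 FPKM in wild type. These near-equal sums held members that differed in opposite directions, since 2 were higher and 3 lower with intervals apart, over differences from −1.42 to 1.87 in log2(FPKM + 1). Over all genes tested, 35.9% were higher and 30.0% lower with intervals apart. The intervals overlapped for dpn (ratio 1.09), wor (ratio 1.05) and erm (ratio 0.935). The ETS factor gene pnt was at 53.3 FPKM in osa RNAi and 13.8 FPKM in wild type, a ratio of 3.85, and ham, the gene for Hamlet, was among the lower genes with a ratio of 0.361. The lower genes also included pros (ratio 0.543) and ase (ratio 0.702), and the other higher gene was btd (ratio 1.46). The 5 neuron markers were above 0 in both libraries, with a summed level of 37.4 FPKM in osa RNAi and 77.6 FPKM in wild type, most of it from elav (30.5 FPKM in osa RNAi and 41.3 FPKM in wild type). Further apart were nerfin-1 (ratio 0.133), Snap25 (ratio 0.103) and brp (ratio 0.141, below the filter on low values). The intervals of n-syb overlapped, at 2.78 FPKM in osa RNAi and 3.86 FPKM in wild type (ratio 0.720). Of the 4 neuron markers tested, 3 were lower with intervals apart, beside the 30.0% lower over all genes tested. Their median difference was −1.32. Genes of the neuron marker list were thus read in the wild type sort, which per the labels held ganglion mother cells but no neurons. After elav, nerfin-1 was the highest of them in wild type at 24.3 FPKM, with Snap25 at 7.08 FPKM and brp at 1.02 FPKM. Whether these transcripts are confined to neurons in these lineages was not tested. The source of these reads was not tested. The part of these marker differences in the values below was not tested either. In such bulk samples, fewer cells of a type and less RNA per cell cannot be told apart. Of 4 glial markers and 4 haemocyte and fat body markers, 2 of each list were at 0 in each library: moody, alrm, He and Lsp2 in osa RNAi, and repo, alrm, srp and Lsp2 in wild type. The glial markers summed to 1.76 FPKM in osa RNAi and 3.74 FPKM in wild type, and the haemocyte and fat body markers to 0.319 FPKM in osa RNAi and 4.36 FPKM in wild type. Most of each wild type sum came from a single gene, gcm at 3.45 FPKM and He at 4.29 FPKM. The value for He rested on 20 implied reads, and its locus overlaps another. In the other direction, repo was at 0.709 FPKM and srp at 0.279 FPKM in osa RNAi.

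All 10 remodeller genes were covered by many reads in both libraries. Their implied reads ranged from 638 for Ino80 in wild type to 11810 for Nurf-38 in osa RNAi, and each gene had the status OK and a mean of at least 1 FPKM, so no member was lost to a filter. None of the 10 was at least 2-fold higher or lower, where the rule asked for a difference of at least 1 in log2(FPKM + 1), deposited intervals that did not overlap, a mean of at least 1 FPKM and the status OK. The targeted gene osa, with a difference of −0.96, also fell short of this rule. Of all 7144 genes tested, 14.6% passed this rule, 7.78% as higher and 6.79% as lower in osa RNAi. Among the 2136 genes with at least 937 implied reads as the mean of the libraries, the lowest such mean of the 10, the share past the rule was 2.11%, made up of 1.59% higher and 0.515% lower. A count of 0 of 10 is close to the share found in genes of like depth. Smaller differences were common: the deposited intervals did not overlap for 9 of the 10 genes, against 65.9% of all genes tested and 71.5% of the genes of like depth. Of these 9, 6 were higher in osa RNAi (35.9% of all genes tested and 43.1% of those of like depth) and 3 were lower (30.0% and 28.4%), 1 of which, MEP-1, shares its locus with another gene. The median difference of the 10 genes was 0.12 in log2(FPKM + 1), beside 0.04 over all genes tested, and their differences ran from −0.47 to 0.38. Of all genes tested, 60.0% had a difference smaller in size than that of Acf1, which had the largest difference of the 10.

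**Figure D1:**
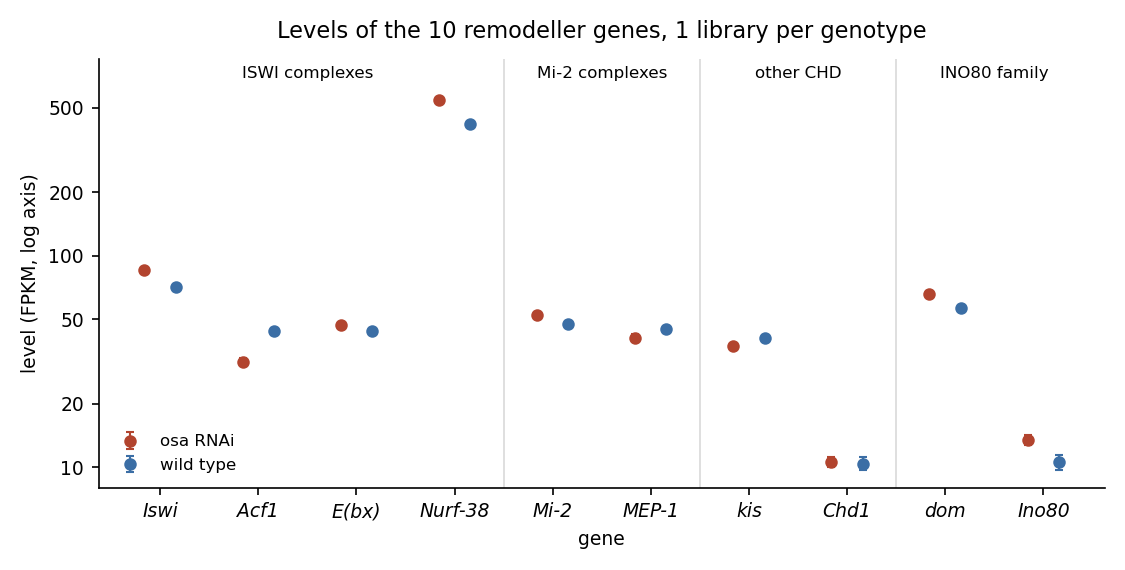
Levels in FPKM (vertical log axis) of the 10 remodeller genes in the osa RNAi library (red, left point of each pair) and the wild type library (blue, right point), with the deposited intervals as bars, most of them shorter than the points. Nurf-38 stands highest in both libraries at 542 FPKM in osa RNAi and 417 FPKM in wild type, and Chd1 lowest at 10.6 FPKM in osa RNAi and 10.4 FPKM in wild type.

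Among the genes of the ISWI complexes, the motor gene and the small NURF subunit gene were higher in osa RNAi, and the gene for the ACF subunit was lower. Iswi (FBgn0011604, 2R from 8524123 to 8528133, 3 transcripts in the tables) was at 85.4 FPKM in osa RNAi (interval 83.04 to 87.8), against 70.8 FPKM in wild type (68.1 to 73.5). The FPKM ratio was 1.21 (95% interval 1.15 to 1.26), and 32.8% of all genes tested had a higher difference. Acf1 (FBgn0027620, 3R from 27619811 to 27625533, 1 transcript) was at 31.6 FPKM in osa RNAi (30.4 to 32.8), against 43.97 FPKM in wild type (42.1 to 45.8). Acf1 is the BAZ-type subunit that makes nucleosome sliding by Iswi directional and regular, and its FPKM ratio of 0.718 (0.679 to 0.759) was the lowest of the 10. Its position was still inside the bulk of the distribution, since 18.2% of all genes tested had a lower difference. The Acf1 locus overlaps 178 bases of CG42233 on the opposite strand, which was at 0.892 FPKM in osa RNAi and 1.92 FPKM in wild type, and the sum of both genes had a ratio of 0.707.

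E(bx), also called Nurf301, encodes the large BPTF-type subunit that holds NURF together and reads histone marks. E(bx) (FBgn0000541, 3L from 234101 to 246901, 5 transcripts) was at 46.9 FPKM in osa RNAi (45.6 to 48.1), against 44.1 FPKM in wild type (42.6 to 45.6), a ratio of 1.06 (1.02 to 1.11). The deposited intervals lay apart by a small margin and overlapped once the libraries were rescaled by the median ratio or by the upper quartile. Nurf-38 (FBgn0016687, 2R from 20446490 to 20448610, 3 transcripts) encodes the inorganic pyrophosphatase that is found in NURF and also acts as a free enzyme. It was at 542 FPKM in osa RNAi (532 to 552), against 417 FPKM in wild type (407 to 428). This ratio of 1.299 (1.26 to 1.34) was the highest of the 10, and 26.1% of all genes tested had a higher difference.

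Among the members of the Mi-2 complexes, the motor gene and MEP-1 taken alone had ratios nearer to 1 than Iswi, Acf1 and Nurf-38. Mi-2 (FBgn0262519, 3L from 19875151 to 19903309, 3 transcripts) encodes the CHD4-type motor, and was at 52.6 FPKM in osa RNAi (51.3 to 53.9), against 47.4 FPKM in wild type (45.8 to 48.9). The FPKM ratio was 1.11 (1.07 to 1.16). Its locus overlaps that of Su(Tpl), an elongation factor gene annotated on the same strand, over 63.9% of its length, and Su(Tpl) was at 31.1 FPKM in osa RNAi and 25.5 FPKM in wild type. Mi-2 and Su(Tpl) were thus both higher in osa RNAi, and the sum of their levels had a ratio of 1.15. A further gene on the same strand, CR32218, overlaps 4.17% of the Mi-2 locus and was not part of that sum. It was at 3.63 FPKM in osa RNAi and listed at 0 in wild type, and how reads were divided there is uncertain.

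MEP-1 (FBgn0035357, 3L from 2631720 to 2641977, 7 transcripts) was at 40.96 FPKM in osa RNAi (39.4 to 42.5), against 44.97 FPKM in wild type (43.2 to 46.7). Taken alone, the gene for this dMec partner was lower, with a ratio of 0.911 (0.863 to 0.961). However, the gene CG42245 covers 100% of the MEP-1 locus on the same strand, and it was at 13.7 FPKM in osa RNAi and listed at 0 in wild type. How reads were divided between these annotations is uncertain, and the sum of their levels was 54.7 FPKM in osa RNAi and 44.97 FPKM in wild type, a ratio of 1.22. The direction for MEP-1 thus depends on that division, and it is given here as the tables have it.

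Both remaining CHD genes were close between the libraries. kis (FBgn0086902, 2L from 210735 to 250823, 6 transcripts) encodes Kismet, a CHD7- and CHD8-type protein of the trithorax group that promotes early steps of transcript elongation. It was at 37.6 FPKM in osa RNAi (36.8 to 38.4), against 40.9 FPKM in wild type (39.8 to 42.01), a ratio of 0.919 (0.889 to 0.950). The gene CG13693, whose locus overlaps that of kis, was listed at 0 in both libraries. Chd1 (FBgn0250786, 2L from 2979699 to 2987677, 2 transcripts), whose product deposits the histone variant H3.3 and spaces nucleosomes behind the polymerase, was at 10.6 FPKM in osa RNAi (10.01 to 11.2), against 10.4 FPKM in wild type (9.67 to 11.2). Its ratio of 1.02 had an interval of 0.932 to 1.12, and Chd1 was the one gene of the 10 whose deposited intervals overlapped. With 1208 implied reads in osa RNAi and 789 in wild type, a difference inside that interval was not detectable at this depth, and its sign turned under both rescalings (−0.01 in log2(FPKM + 1) in each).

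The INO80 family motors were both higher in osa RNAi. dom (FBgn0020306, 2R from 17210949 to 17229352, 4 transcripts) encodes Domino, the SWR1- and p400-type motor that places H2Av in chromatin as part of the Tip60 and Domino complexes. It was at 66.2 FPKM in osa RNAi (64.5 to 67.96), against 56.4 FPKM in wild type (54.5 to 58.3), a ratio of 1.17 (1.13 to 1.22). Ino80 (FBgn0086613, 3R from 15194717 to 15228870, 1 transcript) encodes the motor of the INO80 complex, which in flies also occurs with the Polycomb protein Pho. It was at 13.5 FPKM in osa RNAi (12.7 to 14.2), against 10.5 FPKM in wild type (9.71 to 11.4), and the ratio of 1.28 (1.16 to 1.404) had the widest interval among the 6 genes that were higher. The 7 genes whose loci overlap that of Ino80 were all listed at 0 in both libraries.

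**Figure D2:**
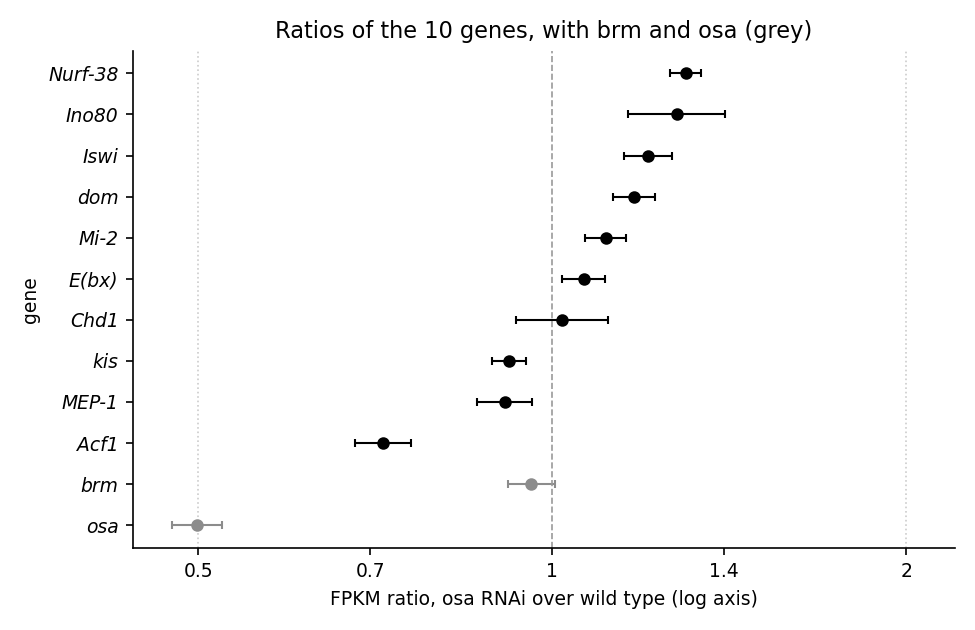
FPKM ratio of osa RNAi over wild type (horizontal log axis) for the 10 remodeller genes in black, from the highest ratio at the top, and for brm and osa in grey, with 95% intervals from implied reads as bars. The 10 genes lie between 0.718 for Acf1 and 1.299 for Nurf-38, inside the dotted lines at 0.5 and 2, while osa is at 0.499.

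The order of levels was alike at the top and bottom of the set and differed in the middle. In both libraries Nurf-38 was highest, followed by Iswi, dom and Mi-2, and Ino80 and Chd1 were lowest. In osa RNAi the genes between them ran from E(bx) through MEP-1 and kis to Acf1, and no neighbours in the whole order had overlapping intervals. In wild type the order was MEP-1, E(bx), Acf1 and kis, and the intervals of neighbours overlapped from Mi-2 through MEP-1 and E(bx) to Acf1, as well as between Ino80 and Chd1. Relative to all genes above 0, Nurf-38 was above 97.4% of genes in osa RNAi and above 96.6% in wild type. Iswi was above 86.6% of genes in osa RNAi and above 83.7% in wild type, and Chd1 was above 45.6% in osa RNAi and above 42.8% in wild type.

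Taking the 6 motor genes of the set with brm, the summed level of these 7 ATPase genes was 311 FPKM in osa RNAi and 283 FPKM in wild type. Iswi made up 27.5% of this sum in osa RNAi (95% interval 26.9 to 28.1) and 25.02% in wild type (24.3 to 25.8). The dom share was 21.3% in osa RNAi (20.8 to 21.8) and 19.9% in wild type (19.4 to 20.5), and the Mi-2 share was 16.9% in osa RNAi (16.6 to 17.3) and 16.7% in wild type (16.2 to 17.2). The share of kis was lower in osa RNAi, at 12.1% (11.8 to 12.4), against 14.5% in wild type (14.1 to 14.8). The share of brm was also lower, at 14.4% in osa RNAi (13.97 to 14.8), against 16.4% in wild type (15.9 to 16.96). The level of brm itself had overlapping deposited intervals, with an FPKM ratio of 0.960 (0.917 to 1.005). The smallest shares were those of Ino80, at 4.33% in osa RNAi and 3.73% in wild type, and of Chd1, at 3.42% in osa RNAi and 3.68% in wild type. These shares do not depend on how the libraries were scaled.

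**Figure D3:**
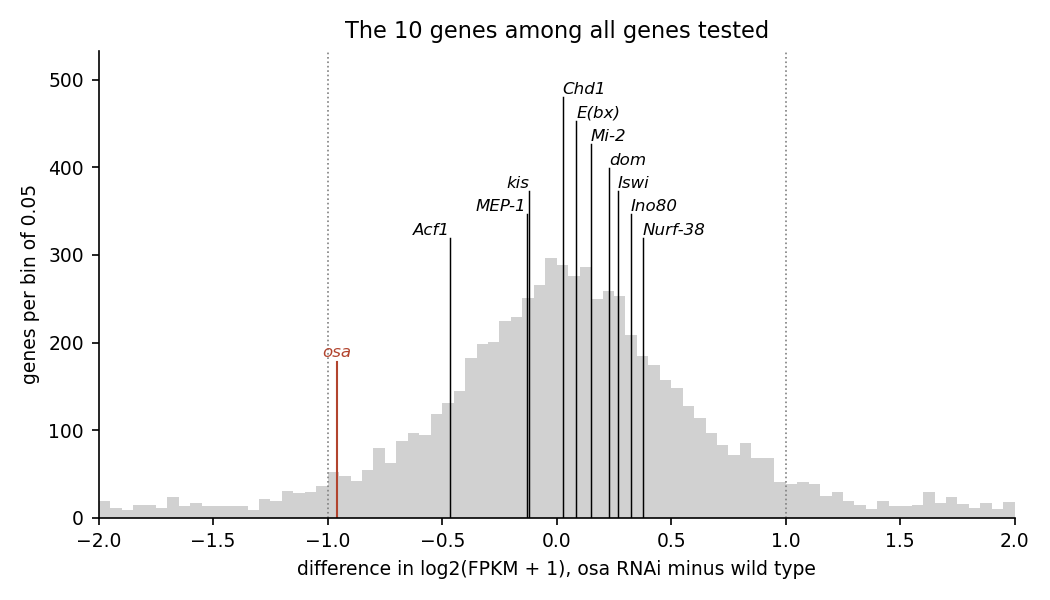
Number of genes (vertical axis, bins of 0.05) by difference in log2(FPKM + 1), osa RNAi minus wild type (horizontal axis), for the genes tested, of which 259 lie outside the plotted range. Black lines mark the 10 remodeller genes, which run from −0.47 for Acf1 to 0.38 for Nurf-38, the red line marks osa at −0.96, and dotted lines mark −1 and 1.

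Ratios of subunit to motor within a library, which are also free of library scaling, separated the partners of Iswi. The level of Acf1 was 0.370 times that of Iswi in osa RNAi (95% interval 0.353 to 0.387), against 0.621 times in wild type (0.588 to 0.656). The quotient of these was 0.595 (0.554 to 0.640). For E(bx) over Iswi, the ratio was 0.549 in osa RNAi (0.529 to 0.570) and 0.623 in wild type (0.592 to 0.655), and the quotient of 0.881 (0.828 to 0.939) was closer to 1. Acf1 and E(bx), the large subunits of alternative Iswi complexes, stood at nearly equal levels in wild type (Acf1 over E(bx) 0.997, interval 0.946 to 1.05) and at 0.673 in osa RNAi (0.643 to 0.705). Nurf-38 was far above the motor in both libraries, at 6.35 times the level of Iswi in osa RNAi (6.15 to 6.56) and 5.90 times in wild type (5.64 to 6.17). MEP-1 over Mi-2 was 0.778 in osa RNAi (0.745 to 0.814) and 0.949 in wild type (0.903 to 0.998). With CG42245 added to MEP-1 this ratio was 1.04 in osa RNAi and 0.949 in wild type, so its direction rests on the division of reads at that locus.

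**Figure D4:**
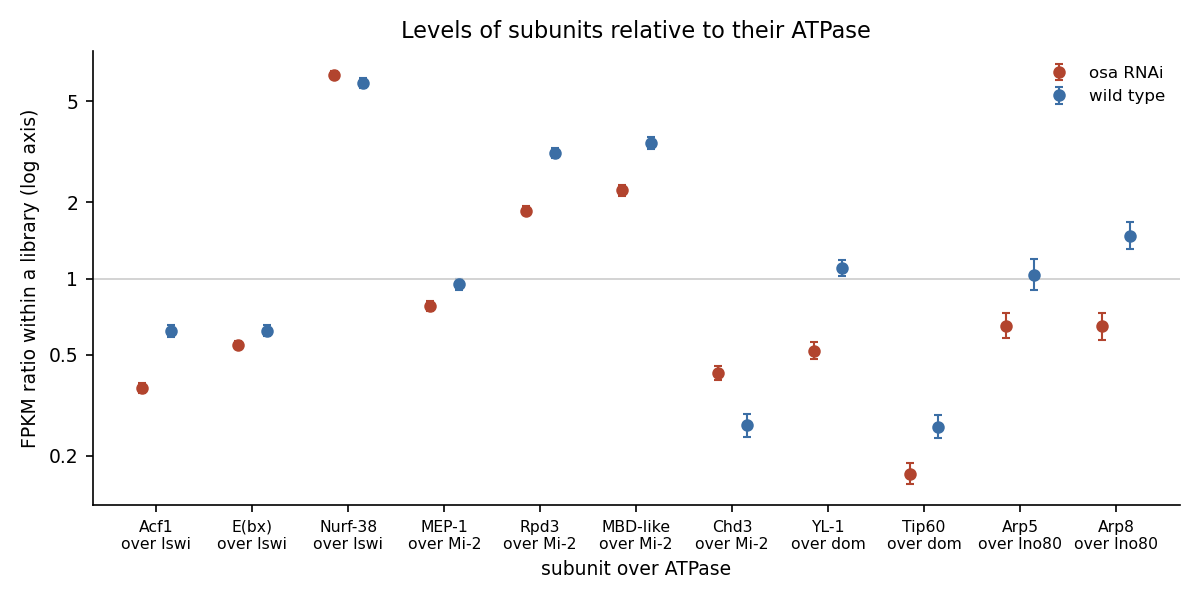
Ratio of the FPKM of a subunit or paralog to that of its ATPase within each library (vertical log axis), for osa RNAi (red, left point of each pair) and wild type (blue, right point), with 95% intervals from implied reads. Acf1 over Iswi is 0.370 in osa RNAi and 0.621 in wild type, and YL-1 over dom is 0.521 in osa RNAi and 1.10 in wild type.

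Other subunits of the same complexes, together with the related genes Chd3 and His2Av, were taken from 4 lists. These lists hold 30 genes when each is counted once, and 29 of the genes could be tested. None passed the 2-fold rule in either direction. The deposited intervals were apart for 7 genes higher and 13 genes lower in osa RNAi, and overlapped for 9, beside 35.9% higher and 30.0% lower over all genes tested. The same shares are the background for the counts of each partner list below. Their median difference was −0.07 in log2(FPKM + 1). The gene left out, Chrac-14, had the status LOWDATA in both libraries.

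Among 5 tested partners of Iswi, the corepressor gene CtBP was higher, at 154 FPKM in osa RNAi and 137 FPKM in wild type. The BAZ2-type gene tou was lower, at 21.1 FPKM in osa RNAi and 23.8 FPKM in wild type, and the intervals of the other 3 overlapped. In the NuRD and dMec list of 7 genes, which includes the Mi-2 paralog Chd3, 2 were higher and 3 lower. The histone deacetylase gene Rpd3 was at 97.3 FPKM in osa RNAi, against 148 FPKM in wild type, a ratio of 0.655 (0.626 to 0.686). The methyl-CpG-binding-domain gene MBD-like was at 117 FPKM in osa RNAi and 163 FPKM in wild type, with a ratio of 0.720 (0.675 to 0.768). In the opposite direction, Chd3, a shorter paralog of Mi-2, was at 22.4 FPKM in osa RNAi and 12.5 FPKM in wild type, a ratio of 1.79 (1.60 to 2.01). Within the libraries, Rpd3 over Mi-2 was 1.85 in osa RNAi and 3.13 in wild type, and Chd3 over Mi-2 was 0.425 in osa RNAi and 0.264 in wild type. Chd3 was the lower of the paralogs in both libraries.

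Of 5 INO80 partners, 1 was higher and 2 were lower. The AAA+ ATPase gene rept was at 58.1 FPKM in osa RNAi and 49.1 FPKM in wild type, and pho, a DNA-binding Polycomb gene, was at 57.6 FPKM in osa RNAi and 67.5 FPKM in wild type. The actin-related gene Arp8 was at 8.71 FPKM in osa RNAi, against 15.6 FPKM in wild type, a ratio of 0.559 (0.483 to 0.646), although its locus overlaps another. Relative to its motor gene, Arp8 over Ino80 was 0.647 in osa RNAi (0.573 to 0.731) and 1.48 in wild type (1.31 to 1.67), a quotient of 0.438 (0.368 to 0.521). Arp5, another actin-related subunit gene, had overlapping intervals, at 8.78 FPKM in osa RNAi and 10.9 FPKM in wild type.

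Of 15 partners of Tip60 and Domino, 4 were higher, 7 were lower and 4 had overlapping intervals. YL-1, whose product binds H2Av for the exchange reaction, was at 34.5 FPKM in osa RNAi, against 62.1 FPKM in wild type, a ratio of 0.555 (0.506 to 0.610). The H2Av gene itself, His2Av, was at 2356 FPKM in osa RNAi and 3388 FPKM in wild type, a ratio of 0.696 (0.685 to 0.707). Both the histone variant gene and its binding subunit were thus lower where dom was higher: YL-1 over dom was 0.521 in osa RNAi (0.484 to 0.560) and 1.10 in wild type (1.03 to 1.18), and His2Av over dom was 35.6 in osa RNAi and 60.04 in wild type. The acetyltransferase gene Tip60, whose locus overlaps another, was at 11.3 FPKM in osa RNAi and 14.7 FPKM in wild type. The PHD-finger gene Ing3 was the highest of the list by its difference, at 4.38 FPKM in osa RNAi, against 2.02 FPKM in wild type. Its plain ratio of 2.17 (1.62 to 2.89) rested on 175 implied reads in osa RNAi and 62 in wild type, and its difference of 0.83 in log2(FPKM + 1) stayed below 1.

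**Figure D5:**
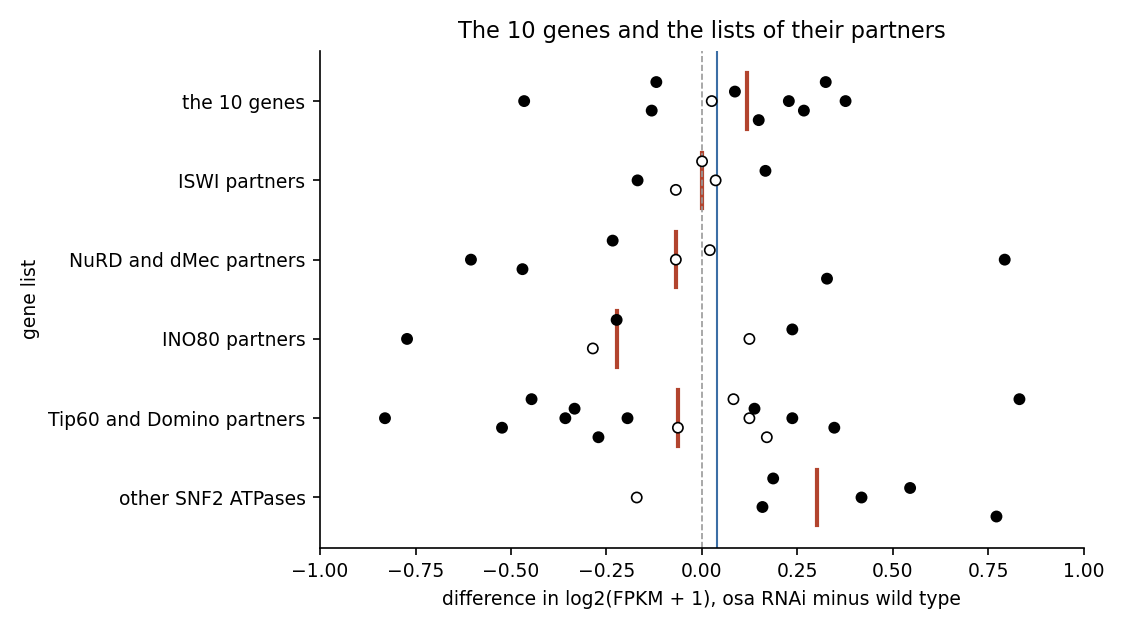
Difference in log2(FPKM + 1), osa RNAi minus wild type (horizontal axis), of each tested gene of the lists named on the vertical axis, with filled points where the deposited intervals were apart and open points where they overlapped. Red bars mark list medians (0.12 for the 10 genes), the blue line marks the median of all genes tested at 0.04, and points are shifted vertically to separate them.

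SNF2-type ATPase genes of other groups were, like most motor genes of the set, higher in osa RNAi. Of 6 such genes, 5 were higher with intervals apart and 1 had overlapping intervals, with a median difference of 0.30. Over all genes tested, 35.9% were higher and 30.0% lower with intervals apart, and the median difference was 0.04. Etl1, related to mammalian SMARCAD1, was at 34.8 FPKM in osa RNAi and 19.96 FPKM in wild type, a ratio of 1.74 (1.59 to 1.91). The annealing helicase gene Marcal1 was at 10.6 FPKM in osa RNAi and 6.94 FPKM in wild type, and lds (lodestar), whose locus overlaps another, at 21.4 FPKM in osa RNAi and 15.7 FPKM in wild type. Grouped after the values were seen, the 14 SNF2 family ATPase genes of all lists, brm and Chd3 included, had 10 higher genes, 1 lower gene (kis) and 3 with overlapping intervals. The background shares for this count are the 35.9% higher and 30.0% lower given above. Under both rescalings 9 were higher and 2 lower, kis and brm.

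In the Brahma complex, which shares the subunit gene Bap55 with the Tip60 list, 3 of 10 genes were higher and 3 lower, beside the 35.9% higher and 30.0% lower over all genes tested. The lower genes were osa itself, Snr1 and Bap55, with differences of −0.96, −0.33 and −0.19 in log2(FPKM + 1). In the other direction, Bap170 was at 31.9 FPKM in osa RNAi and 16.4 FPKM in wild type, and polybromo at 24.4 FPKM in osa RNAi and 19.2 FPKM in wild type, with differences of 0.92 and 0.33 in log2(FPKM + 1). The difference of Bap170 was larger in size than that of any of the 10 remodeller genes.

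With only 2 libraries, likeness of pattern reduces to closeness of both levels. By Euclidean distance in log2(FPKM + 1) over the 2 libraries, the genes nearest to Nurf-38 were CG9548 (564 FPKM in osa RNAi and 434 FPKM in wild type, distance 0.08) and the snoRNP protein gene NHP2 (576 FPKM in osa RNAi and 434 FPKM in wild type, distance 0.10). Those nearest to Acf1 were CG5346 (31.7 FPKM in osa RNAi and 44.4 FPKM in wild type, distance 0.02) and CG13373 (32.2 FPKM in osa RNAi and 43.7 FPKM in wild type, distance 0.03). The authors' deposited table of 15 genes at a false discovery rate of 0.01 held 0 of the 10 remodeller genes and 0 of the partner genes. Beside the 14210 genes listed, 15 is so few that a count of 0 says little about such short lists. The targeted gene osa was also absent from that table.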

How the data were processed

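Strand-specific polyA libraries were made, per the labels' protocols. For each of 14210 genes the authors deposited FPKM with bounds and a status, per the file headers. Tools named without roles in the submitters' processing notes are DESeq 1.8.3, HTSeq, Cufflinks 1.3.0, TopHat 1.4.1 and BWA 0.6.1. Sources used here give no genome build or annotation and do not say whether strand was used in counting. Coordinates are those of the files, counted from 1, and strands were taken by gene ID from BDGP6. A further table, deposited by the authors, gives an adjusted p-value for genes kept at a false discovery rate under 0.01 (per the file headers).

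Implied reads n came from the bounds, which lie at FPKM ± 2 × FPKM/√n, and were whole within 0.02 for 93.4% of 1018 osa RNAi genes and 92.8% of 846 wild type genes with 1 transcript and under 50 reads. For genes with several or overlapping transcripts, n also holds the uncertainty of dividing reads. Ratios are plain FPKM ratios with 95% intervals from n. Reads lack molecular identifiers, so the intervals cover counting error of reads, not of the original molecules. With 1 library per genotype, they cover no error between animals or libraries. Differences in log2(FPKM + 1) understate low genes. The call rules were tested on simulated data.

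Named genes were the members, up to 3 genes of each other list with the largest differences among those with intervals apart, osa, brm and the nearest genes; Tip60, Arp5, Snr1, Bap55 and the cell markers named were added after values were seen. The members and lists were chosen with earlier results of these data known. Python 3.11.15, numpy 2.4.6 and pandas 2.3.3 were used.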

Additional observations from a re-analysis of the deposited data

How the results depend on the processing

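No paired analysis was possible because each genotype had 1 library, and leaving out a library was not possible for the same reason. No member passed the 2-fold rule under any of 10 alternatives run: pseudocounts of 0.1 and 5, both rescalings, no filter or a mean of at least 5 FPKM, thresholds of 1.5-fold and 3-fold, genes of any status, and overlapping loci left out. Over all genes tested, the share past the rule as higher ran from 2.16% (pseudocount 5) to 17.1% (1.5-fold), and as lower from 1.53% to 14.3% under the same settings. The count of members with intervals apart was 5 higher and 3 lower under both rescalings, where E(bx) no longer had intervals apart, beside 33.5% higher and 32.4% lower over all genes under the median ratio and 33.0% each under the upper quartile. Leaving out genes with overlapping loci kept 4 of the 10 members, of which 3 were higher (E(bx), Iswi and Nurf-38) and 0 lower, because Acf1, MEP-1 and kis are among the genes left out, and the shares over all genes so kept were 36.3% higher and 29.8% lower. Partner genes, in alternatives added after the data were seen, counted 6 higher and 15 lower under both rescalings. The median difference of the members ran from 0.08 to 0.18. Of 41 alternatives for single members, 40 moved the difference by less than its counting interval. The remaining one, added after the data were seen, summed MEP-1 with CG42245 and turned the difference to 0.28. Rescaling shifted all genes by 0.04 on the log2 scale. Subunit ratios do not depend on scaling, so no alternative was run for them. Levels of genes with few reads, such as Ing3, are limited by counting error, and no value here carries biological error.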
